A study of Mus musculus with 42 samples.

Results

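Foxp1 is the gene of the forkhead protein that marks the motor neurons innervating the limbs, and its locus was examined here for binding of induced Hox proteins in differentiating mouse motor neurons. The gene (ENSMUSG00000030067.17) lies on the minus strand of mouse chromosome 6 in the mm10 build, at chr6:98925338-99522721. It spans 597 kb in the GENCODE vM21 annotation, which lists 31 transcripts of it with 22 different starts. The members were all ChIP-seq binding events whose position fell within the gene or 50 kb to either side, at chr6:98875338-99572721. The rule found 1092 of the 1087512 events in 21 lists, and merging events within 100 bp of each other gave 240 sites of 377386 in the series.

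Hox proteins are transcription factors that assign positional identity to neurons along the spinal cord. In the embryo, Foxp1 acts as an accessory factor of Hox proteins: limb-level Hox6 and Hox10 proteins are linked to high Foxp1 and lateral motor column identity, whereas Hoxc9, expressed at thoracic levels, is known for repressing Foxp1. Posterior Hox proteins tend to prefer a TTTAT core where central ones prefer TAAT. Many Hox proteins bind beside the TALE cofactors PBX and MEIS, and TGATTTAT joins the base pairs recognised by PBX to those of a posterior Hox protein.

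The study induced one tagged Hox protein at a time with doxycycline from a single-copy transgene in mouse embryonic stem cell lines, and mapped its binding by ChIP-seq. The day 3 lists came from cells that were differentiated towards spinal motor neurons with retinoic acid and a Hedgehog agonist and were exposed to doxycycline for 24 h. They covered HOXC6, HOXC8, HOXC9, HOXC10, HOXA9, HOXD9, HOXC13 (a human cDNA) and 4 chimeras that exchange parts of HOXC10 and HOXC13. In the pair HOXC13:C10.1 and HOXC13:C10.2 the homeodomain side comes from HOXC10 and the N-terminal side from HOXC13, and in the HOXC10:C13 pair the parts are exchanged. HOXC6, HOXC9 and HOXC10 were also mapped at day 4 after 48 h of doxycycline, and HOXC6 and HOXC9 in unpatterned embryoid bodies (EBs) after 12 h. The cofactor MEIS was mapped at day 3 in lines with inducible V5-tagged Hoxc6, Hoxc9 and Hoxc10 (iHoxc6 and so on), and PBX at day 4 in Flag-tagged Hoxc9 and Hoxc10 lines. All lines express an added Hox protein above whatever endogenous Hox genes the cells use, and no transcript levels were analysed here.

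The lists rested on 40 libraries of 5036342 to 32883983 reads, with 5 lists from 1 library, 14 from 2, 1 from 3 and 1 from 4. The share of reads that the event caller assigned to binding ranged from 0.008 to 0.527. Replicates were pooled before events were called, so no list has an error between replicates. Intervals given below are exact 95% intervals on counts of events, they cover counting error only, and no test between lists was made. Most Hox libraries used a Flag antibody, but 1 HOXC10 day 3 library used a V5 antibody and the second HOXA9, HOXD9 and HOXC13 libraries used an HA antibody. The part of the antibody in any difference between factors was not tested. Sites are named by their distance in kb from the 5′-most Foxp1 transcript start, positive in the direction of transcription. An event's rank is its place in its own list ordered by q-value, with rank 1 the best, and the 10000 best events of a list are called its top events.

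The sites on which the results turned are shown first, each as 101 bases of the strand of the gene (the minus strand of mm10), centred on the position of the best-ranked Hox event of the site. Capitals mark the central core TAAT, the posterior core TTTAT, its HOXC13 form TTTAC and the bipartite TGATTTAT on either strand, where overlapping matches run together. The first 4 sites held a top event of HOXC6, HOXC8, HOXC9 and HOXC10, and they were the only sites to do so. They were at chr6:99467286-99467386, chr6:99348109-99348209, chr6:99190087-99190187 and chr6:99019913-99020013.
+55.4 kb: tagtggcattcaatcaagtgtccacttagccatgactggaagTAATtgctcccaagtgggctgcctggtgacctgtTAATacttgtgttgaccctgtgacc
+174.6 kb: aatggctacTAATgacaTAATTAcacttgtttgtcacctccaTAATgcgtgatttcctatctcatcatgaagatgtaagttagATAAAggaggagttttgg
+332.6 kb: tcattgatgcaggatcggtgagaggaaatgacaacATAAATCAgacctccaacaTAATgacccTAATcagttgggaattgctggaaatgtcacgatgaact
+502.8 kb: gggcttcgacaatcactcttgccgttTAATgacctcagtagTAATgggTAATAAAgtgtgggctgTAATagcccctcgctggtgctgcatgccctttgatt

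The next 4 are shown because lists parted there. The +486.6 kb site (chr6:99036104-99036204) had events of HOXC6, HOXC8 and HOXC10 and none of HOXC9. The +73.9 kb site (chr6:99448777-99448877) had a top HOXC9 event and none of HOXC6 or HOXC10. The +527.3 kb (chr6:98995404-98995504) and +589.2 kb (chr6:98933430-98933530) sites ranked best for HOXC13.
+486.6 kb: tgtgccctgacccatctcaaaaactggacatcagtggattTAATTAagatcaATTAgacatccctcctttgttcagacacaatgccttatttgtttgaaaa
+73.9 kb: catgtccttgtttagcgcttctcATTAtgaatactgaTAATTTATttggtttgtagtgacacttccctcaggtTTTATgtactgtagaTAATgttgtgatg
+527.3 kb: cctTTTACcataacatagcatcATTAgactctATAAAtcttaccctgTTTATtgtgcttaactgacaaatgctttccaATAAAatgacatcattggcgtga
+589.2 kb: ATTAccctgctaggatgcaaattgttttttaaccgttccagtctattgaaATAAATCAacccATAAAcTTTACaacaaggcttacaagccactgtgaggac

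Sites were spread through the whole gene and most lay in introns. The gene takes up 597 kb of the 697 kb window, and the intronic share of the window was not computed. Of the 240 sites, 217 lay within the gene and in no exon of any Foxp1 transcript, and are called intronic here. Some of them lie outside the transcripts that start further downstream. Another 11 lay in a non-coding exon stretch of at least 1 transcript, 7 lay upstream and 5 downstream, and none lay in coding sequence. The 5′ part of Foxp1, with the +55.4 and +174.6 kb sites, also lies within Gm20696, an annotated gene on the same strand. A total of 13 sites lay within 1 kb of a transcript start. How much of the window lies that close to a start was not computed, so no shortage can be read from this count. At 11 of the 13 sites no list had a top event. The +0.1 kb site, 15 bp from a start, was a single HOXD9 event at rank 27948 of 56400, and the +256.1 kb site a single HOXC6 event of EBs at rank 32795 of 44751. The best rank at these 11 sites was 14028, for HOXC10 at day 4 at +587.9 kb, 714 bp from a start, and the next was 18699 for HOXC8 at +494.2 kb. The exceptions with top events were +493.0 kb, 760 bp from a start, where HOXC6 ranked 2456 in EBs, and +493.9 kb, where HOXC10 ranked 5427 at day 4. Sites of at least 8 lists were most frequent from +500 to +550 kb, with 8 of 27 sites, and from +550 to +600 kb, with 7 of 23, towards the 3′ end of the gene.

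**Figure D1:**
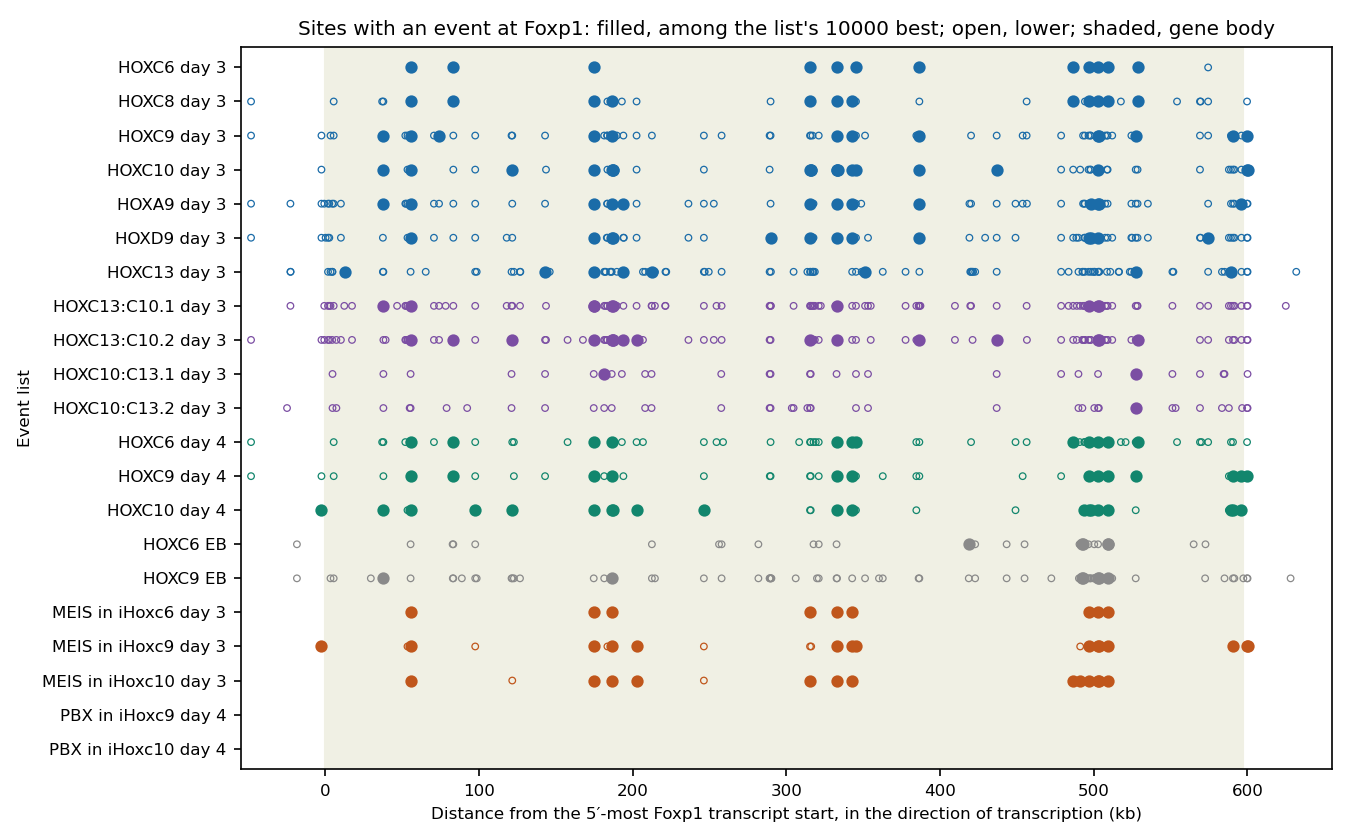
Sites with an event at Foxp1 in each of the 21 lists, by distance in kb from the 5′-most transcript start (horizontal axis), with 1 list per line. Filled points are among the 10000 best events of the list and open points rank lower, the shading marks the gene body, and columns of filled points stand at +55.4, +174.6, +332.6 and +502.8 kb while both PBX lines are empty.

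Sites at Foxp1 were used by more lists than sites elsewhere. A total of 87 sites (36.2%) appeared in 1 list, against 45.8% of all sites of the series. Sites of at least 8 lists made up 19.6% at Foxp1 (47 sites) and 8.25% in the series, and sites of at least 15 lists made up 4.58% (11 sites) and 0.988%. All 11 of these were intronic. The +55.4 and +502.8 kb sites were in 19 lists, which is every list except the 2 PBX lists. Sharing depends on list length, which ran from 848 to 128388 events, and the same lengths apply to both shares.

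Each full-length factor placed more of its best events at Foxp1 than at nearly all other genes. HOXC10 had 21 top events there (95% Poisson interval 13.0 to 32.1), HOXC9 had 16 (9.15 to 26.0), HOXA9 had 15, HOXC8 and HOXD9 had 14 each, HOXC6 had 13 (6.92 to 22.2) and HOXC13 had 8 (3.45 to 15.8). These intervals overlap one another, and the ordering between factors is therefore not resolved by the counts. Counted in the same way, the window of Foxp1 took place 19 among 21924 protein-coding genes for HOXC10, place 20 for HOXC9, place 29 for HOXC6 and place 86 for HOXC13. Long genes collect more events, and among the 569 coding genes of at least 299 kb the places were 9 for HOXC10, 16 for HOXC9, 19 for HOXC6 and 55 for HOXC13. Over 16 Hox lists Foxp1 held 204 top events and took place 25, where the median coding gene held 3.

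**Figure D2:**
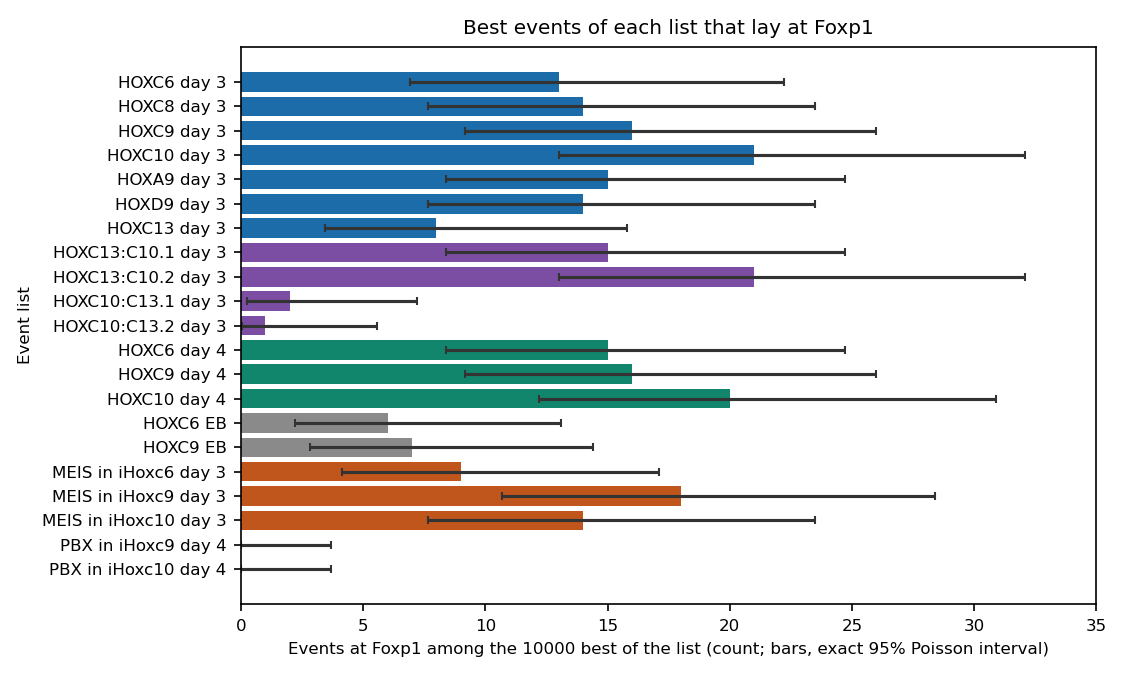
Events at Foxp1 among the 10000 best of each list (horizontal axis, count) with exact 95% Poisson intervals as bars, 1 list per line, where the MEIS list of iHoxc6 and both PBX lists hold fewer than 10000 events. HOXC10 at day 3 and HOXC13:C10.2 had 21 events each, whereas the chimeras with a HOXC13 homeodomain had 2 and 1.

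The site at +174.6 kb was in 18 lists. HOXA9 ranked it 122, HOXC9 172, HOXC6 416, HOXC8 733, HOXD9 771, HOXC10 1426 and HOXC13 7981. The estimated ChIP count, which is the number of reads assigned to the event and is not scaled for depth, was 429 for HOXC6 and 2351 for HOXC9. It was the best Foxp1 site in the HOXC6, HOXA9 and HOXD9 lists and in both HOXC13:C10 lists, and it had no HOXC6 event in EBs.

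The +502.8 kb site was the best one for HOXC9, at rank 103 with an estimated ChIP count of 2762. HOXC10 had it at rank 975, HOXC8 at 2413, HOXD9 at 2871, HOXA9 at 3451 and HOXC6 at 7001. At +55.4 kb HOXC8 ranked best, at 604, with HOXC9 at 2148, HOXC10 at 2875 and HOXC6 at 6438. At +332.6 kb HOXC10 ranked best, at 535, followed by HOXD9 at 1650, HOXA9 at 2083, HOXC6 at 2497, HOXC8 at 3177 and HOXC9 at 3277. The limb-level and thoracic factors shared these 4 intronic sites with different ranks. HOXC13 had no event at +332.6 kb and ranks of 18580 and 20220 at +502.8 and +55.4 kb.

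Over full lists, HOXC6 binding at Foxp1 was almost contained in that of HOXC8 and HOXC9. Their lists are longer, at 44608 and 74085 events against 17900 for HOXC6. All 17 HOXC6 events had a HOXC8 event within 100 bp, a share of 100% (95% interval 80.5 to 100) against 90.2% of all HOXC6 events in the genome. Of the 17, 16 had a HOXC9 event, 94.1% (71.3 to 99.9) against 69.8% in the genome. The exception was the +486.6 kb site. HOXC6 ranked it 1654 and HOXC8 2575, and it was thus the second-best HOXC6 site at Foxp1. HOXC10 had it at rank 20841 of 26873, HOXD9 at 49675 of 56400, and HOXA9 and HOXC13 had no event there. The 101 bases above hold TAAT on either strand in 3 places and no TTTAT. With both lists at the length of the shorter, 16 of the 17 HOXC6 events had a HOXC8 event, 94.1% against 68.2% in the genome. For HOXC9 it was 10 of 17, 58.8% against 35.1%. All 16 merged HOXC6 sites were also in both HOXC13:C10 lists, which had 118 and 103 sites at Foxp1. Those lists are long, at 99311 and 87315 events, and no genome share was computed for this overlap.

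A larger share of HOXC9 events had a HOXC10 event at Foxp1 than over the genome, but the reverse share was not clearly higher. The window also held more of the HOXC10 list, 0.182%, than of the HOXC9 list, 0.119%. Of 88 HOXC9 events, 44 had a HOXC10 event, 50.0% (39.1 to 60.9) against 30.4% in the genome. Counted from HOXC10, 41 of 49 events had a HOXC9 event, 83.7% (70.3 to 92.7), with the share of 81.3% in the genome inside the interval. A top HOXC9 event without any HOXC6 or HOXC10 event was found at the +73.9 kb site alone, at rank 9150, where HOXA9 ranked 25911. How frequent such events are over the genome was not computed. Of the events of its paralogs at Foxp1, a HOXC9 event accompanied 60 of 78 for HOXA9, 76.9% (66.0 to 85.7) against 67.4% in the genome. For HOXD9 it was 50 of 73, 68.5% (56.6 to 78.9) against 55.5%.

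**Figure D3:**
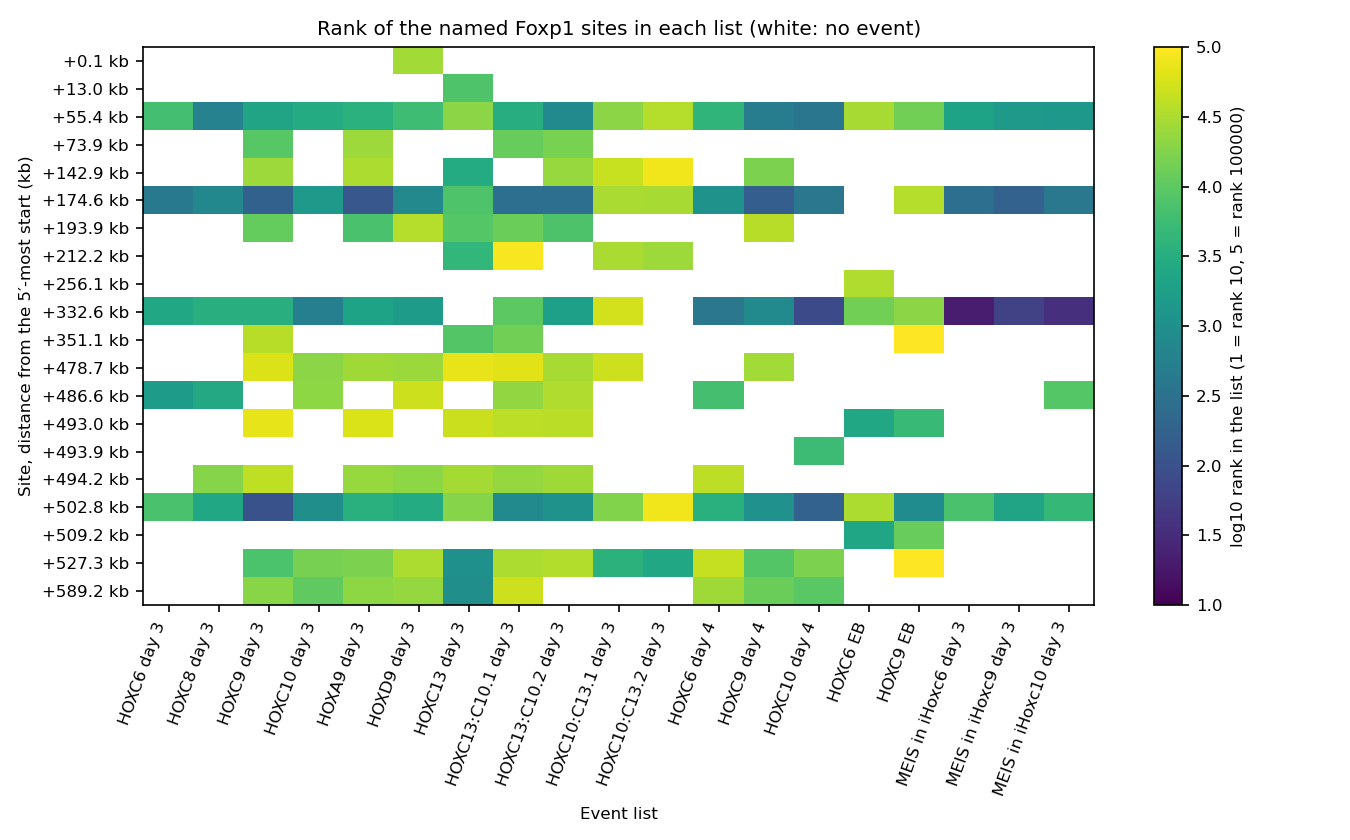
Rank of 20 Foxp1 sites (lines, by distance in kb) in each of the 19 lists with events at Foxp1 (columns), coloured by the log10 of the rank, with dark cells for the best ranks and white for no event. The +55.4, +174.6, +332.6 and +502.8 kb sites are dark in the lists of HOXC6, HOXC8, HOXC9 and HOXC10 in neurons and lighter or white in those of HOXC13, the HOXC10:C13 chimeras and in most cells of the EB columns, and the +332.6 kb site is darkest in the 3 MEIS columns.

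The best HOXC13 sites at Foxp1 were not those of the other full-length factors, although many of its sites were shared. They were +589.2 kb at rank 984, with an estimated ChIP count of 1349, and +527.3 kb at rank 1019, with a count of 1388. HOXC10 had the same sites at ranks 10537 and 15162 and HOXC9 at 19536 and 7439. Both of the sequences above hold TTTAC, the form preferred by HOXC13, beside TTTAT, and the +589.2 kb sequence also holds TGATTTAT. Of the 8 sites with a top HOXC13 event, 5 had no HOXC10 event, 62.5% (24.5 to 91.5) against 82.6% of top HOXC13 events in the genome. These were +142.9 kb at rank 2935, +212.2 kb at 4378, +13.0 kb at 7846, +351.1 kb at 8512 and +193.9 kb at 8727. The 101 bases at +212.2 and +351.1 kb hold TTTAC, and those at +142.9, +13.0 and +193.9 kb do not. The +13.0 kb site was in no other list. Of the 101 HOXC13 sites, 44 were shared with HOXC9 and 27 with HOXC10, counts for which no genome share was computed. Of the 102 HOXC13 events 25 had a HOXC10 event within 100 bp, 24.5% (16.5 to 34.0), against 7.46% in the genome.

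The top events of the chimeras at Foxp1 differed with the homeodomain side. The versions with the HOXC10 homeodomain, HOXC13:C10.1 and HOXC13:C10.2, had 15 (8.40 to 24.7) and 21 (13.0 to 32.1) top events at Foxp1. The versions with the HOXC13 homeodomain, HOXC10:C13.1 and then HOXC10:C13.2, had 2 (0.242 to 7.22) and 1 (0.0253 to 5.57), and their intervals lie below those of both HOXC13:C10 chimeras and of HOXC10. Their counts were also lower than the 8 of HOXC13, with overlapping intervals. At +174.6 kb the HOXC13:C10 chimeras ranked 291 and 292 and the HOXC10:C13 chimeras 30756 and 30465. At +527.3 kb the order was the opposite, with ranks of 32209 and 34169 for the HOXC13:C10 chimeras and 3691 and 2531 for the HOXC10:C13 chimeras, for which this HOXC13 site was the best at Foxp1. The +589.2 kb site, the best of HOXC13, had no event of either HOXC10:C13 chimera.

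Over full lists the overlap of the chimeras with their parents was less clear. HOXC13:C10.1 events at Foxp1 had a HOXC10 event in 41.2% (21.9% in the genome) and a HOXC13 event in 47.1% (37.5% in the genome), which differ by -5.88 percentage points with an interval of -16.9 to 5.78. In HOXC13:C10.2 a HOXC10 event accompanied 44.7% (31.3% in the genome) and a HOXC13 event 42.1% (28.5%), which differ by 2.63 points (-9.57 to 14.5). Of the HOXC10:C13.1 events 51.6% had and 48.4% lacked a HOXC10 event, where 89.8% lacked one in the genome. A HOXC13 event accompanied 71.0% (49.5% in the genome), which leaves -19.4 points (-37.6 to 7.32). In HOXC10:C13.2 the share with HOXC10 was 40.5% (7.89% in the genome) and that with HOXC13 69.0% (47.0%), or -28.6 points (-36.9 to -8.88). The list of HOXC13 holds 115879 events and that of HOXC10 26873. With the chimera and both parents limited to the 26873 best events of each, the differences were 33.3 and 50.0 points for the HOXC13:C10 chimeras and -25.0 and -66.7 points for the HOXC10:C13 chimeras, the last 2 over 8 and 6 events.

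**Figure D4:**
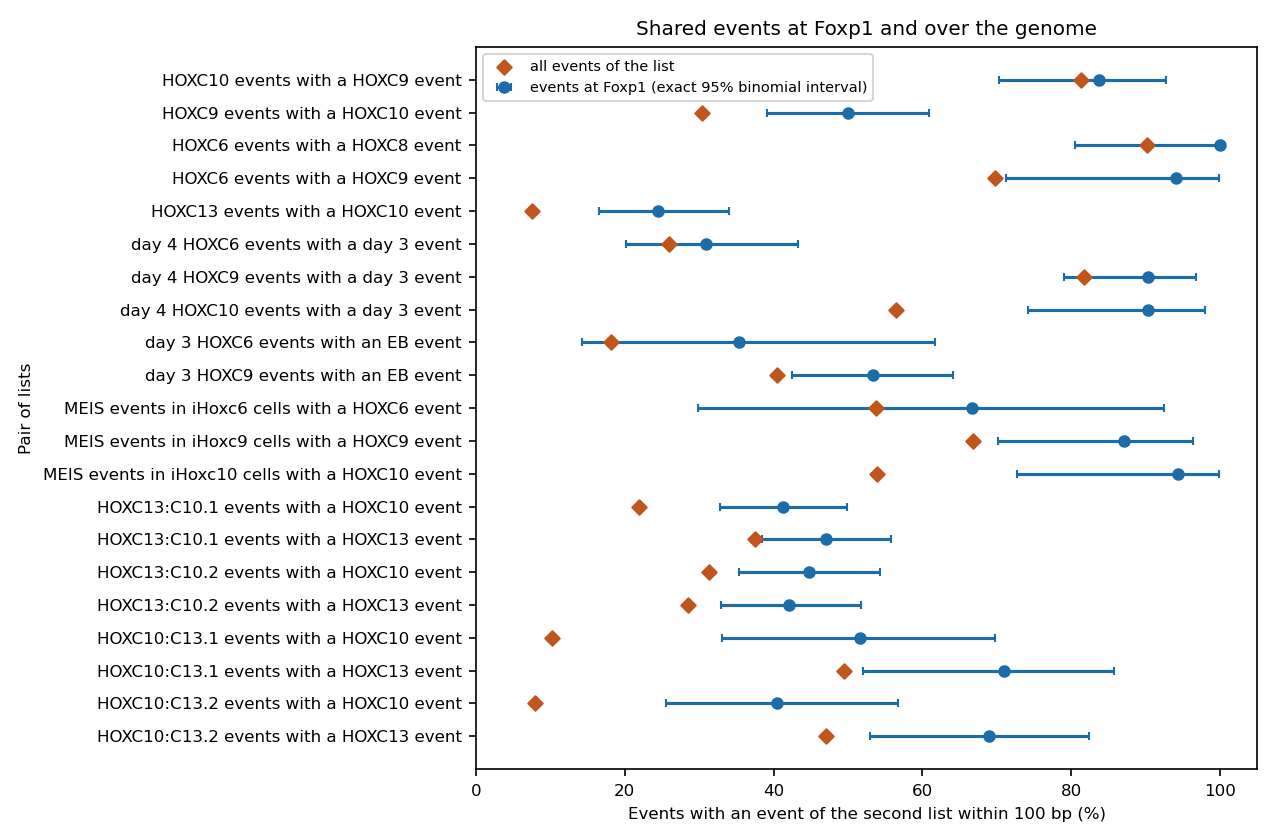
Percentage of events with an event of a second list within 100 bp (horizontal axis), for 21 pairs of lists, at Foxp1 (circles with exact 95% binomial intervals) and over all events of the first list (diamonds). The circle lies to the right of the diamond in all 21 pairs and the interval excludes the diamond in 15. Without the chimeras it does so in 7 of 13 pairs. The pairs share lists and events and are not independent.

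Most HOXC9 and HOXC10 events at Foxp1 on day 4 lay where the same factor had an event on day 3. Of 31 HOXC10 events at day 4, 28 had a day 3 event, 90.3% (74.2 to 98.0) against 56.4% in the genome. This excess was absent at q below 1e-10 in both lists, where the share was 55.0% (11 of 20) at Foxp1 and 56.1% in the genome. For HOXC9 it was 47 of 52, 90.4% (79.0 to 96.8) against 81.8%, and for HOXC6 21 of 68, 30.9% (20.2 to 43.3) against 25.9%, with 69297 events in the day 4 HOXC6 list and 17900 in that of day 3. HOXC10 ranked +332.6 kb at 80 on day 4 and 535 on day 3, +502.8 kb at 178 and 975, +55.4 kb at 372 and 2875, and +174.6 kb at 381 and 1426. Better ranks at day 4 were not limited to these sites, since 20 of the 28 sites shared by both HOXC10 lists had them, and the lists differ in length and depth. The HOXC10 log2 fold over control at +332.6 kb was lower at day 4, 3.85 against 5.72. It was higher at day 4 at +174.6 kb (6.89 against 5.81), +502.8 kb (7.0 against 6.78) and +55.4 kb (7.0 against 6.27). The control libraries of the series are an anti-Flag ChIP at day 3 and an input at day 4. The day 4 HOXC10 list had fewer control reads. The part of the control in these changes of fold was not tested. Of the top HOXC10 sites at Foxp1, 9 were top on both days, 11 on day 3 alone and 11 on day 4 alone. This split was not counted over the genome. At Foxp1, 7 top sites of day 3 had no day 4 event, and 1 top site of day 4 had no day 3 event. The latter lay in a non-coding exon at +493.9 kb, 107 bp from a transcript start. HOXC6 ranked +332.6 kb at 388 on day 4 and 2497 on day 3, whereas +174.6 kb stood at 1154 and 416. The day 4 HOXC6 list had top events at +186.3 and +342.7 kb, where it had none at day 3.

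In EBs the best sites were partly others than in neurons. HOXC6 had 6 top events (2.20 to 13) and HOXC9 7 (2.81 to 14.4) in EBs, against 13 and 16 in day 3 neurons, with overlapping intervals. Of the 17 HOXC6 events of day 3, 6 had an EB event, 35.3% (14.2 to 61.7) against 18.1% in the genome. Of the 88 HOXC9 events it was 47, 53.4% (42.5 to 64.1) against 40.4%. The best HOXC6 sites of EBs, +509.2, +492.6 and +493.0 kb at ranks 2345, 2351 and 2456, had no HOXC6 event in neurons. However, the +509.2 kb site adjoins the +509.0 kb site, where HOXC6 ranked 3556 in EBs, 9479 at day 3 and 5182 at day 4. The +174.6 kb site, the best HOXC6 site of day 3, had no HOXC6 event in EBs. HOXC9 kept +502.8 kb as its best site, at rank 870, whereas +174.6 kb stood at rank 35816 of 128388 in EBs and 172 of 74085 in neurons.

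MEIS, a TALE homeodomain cofactor of Hox proteins, had some of its best events of the genome at Foxp1. The +332.6 kb site ranked 21 of 8219 events in the iHoxc6 line, 34 of 12982 in iHoxc10 and 60 of 22749 in iHoxc9, and was the best MEIS site at Foxp1 in all 3. The +174.6 kb site followed in iHoxc6 at rank 285, and it stood at 181 and 394 in iHoxc9 and iHoxc10. Of 32 sites with MEIS, 9 were shared by the 3 lines, and all 9 held HOXC9 and HOXC10 events at day 3 and 7 held HOXC6 as well. The iHoxc9 list had 15 sites of its own, the iHoxc10 list 4 and the iHoxc6 list none, in the order of the list lengths. Genome shares for these counts of MEIS sites were not computed, so whether Foxp1 differs in them is not known. The MEIS lists are compared with Hox lists of other lines, since the HOXC6 and HOXC9 libraries and 2 of the 3 HOXC10 libraries came from Flag-tagged lines. An event of the same factor lay within 100 bp of 17 of 18 MEIS events at Foxp1 in iHoxc10 (94.4%, 72.7 to 99.9) against 53.9% in the genome. At q below 1e-10 in both lists it was 6 of 10 (60%) against 52.4%. Over all called events the share in iHoxc9 was 27 of 31 (87.1%, 70.2 to 96.4) against 66.8%. In iHoxc6 it was 6 of 9 (66.7%, 29.9 to 92.5), with the genome share of 53.8% inside the interval. Only 2 MEIS sites, both of iHoxc9 with ranks of 19767 and 21630, held no Hox event in any of 16 lists. PBX had no event at Foxp1 in lists of 1165 and 848 events, and a count of 0 allows up to 3. The share of reads assigned to binding was 0.009 for PBX in iHoxc9 and 0.008 in iHoxc10, the lowest of all libraries. The authors report a weak signal for this antibody, so these lists cannot tell whether PBX was bound at Foxp1. Each MEIS and PBX list rests on 1 library.

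The bipartite PBX-Hox motif was frequent at the Foxp1 events. TGATTTAT lay within 50 bp of 12 of 49 HOXC10 events at day 3, 24.5%, against 7.31% of all HOXC10 events. The shares were 17.6% against 3.47% for HOXC6, 14.8% against 5.93% for HOXC9, 9.80% against 2.48% for HOXC13, and 55.6% (5 of 9) against 6.71% for MEIS in iHoxc6 cells. The share was higher at Foxp1 in all 19 lists and its interval lay above the genome share in 14, but the lists share sites and are not independent. Consecutive 101 bp stretches of the Foxp1 window held the motif in 0.811% of 6904 cases. It was found at 20 of the 240 sites, among them 11 of the 47 sites of at least 8 lists (23.4%) and 4 of the 87 sites of 1 list (4.6%). The median number of lists was 8 at sites with the motif and 2 at those without.

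For the other motifs the interval at Foxp1 lay above the genome share in 4 lists (TAAT), 1 list (TTTAT) and 0 lists (TTTAC) of 19. TAAT lay at 94.1% of HOXC6 events there and 71.1% in the genome, and at 83.7% and 72.7% for HOXC10. TTTAT lay at 59.2% and 54.2% for HOXC10 and at 82.4% and 78.8% for HOXC13. TTTAC, the sequence form of HOXC13, lay at 37.3% and 42.8% for HOXC13 and at 34.7% and 24.3% for HOXC10. Of the 101 bp stretches, 47.1% held TAAT, 28.3% held TTTAT, 19.0% held TTTAC and 7.31% held the MEIS hexamer TGACAG. This hexamer was at 12.9% of MEIS events at Foxp1 in iHoxc9 cells and 21.2% of those in the genome. Its share at Foxp1 was lower than in the genome in 18 of 19 lists, with the interval below the genome share in 2. The lists share sites and are not independent. All motifs were searched on both strands, and TGATTTAT contains TTTAT.

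**Figure D5:**
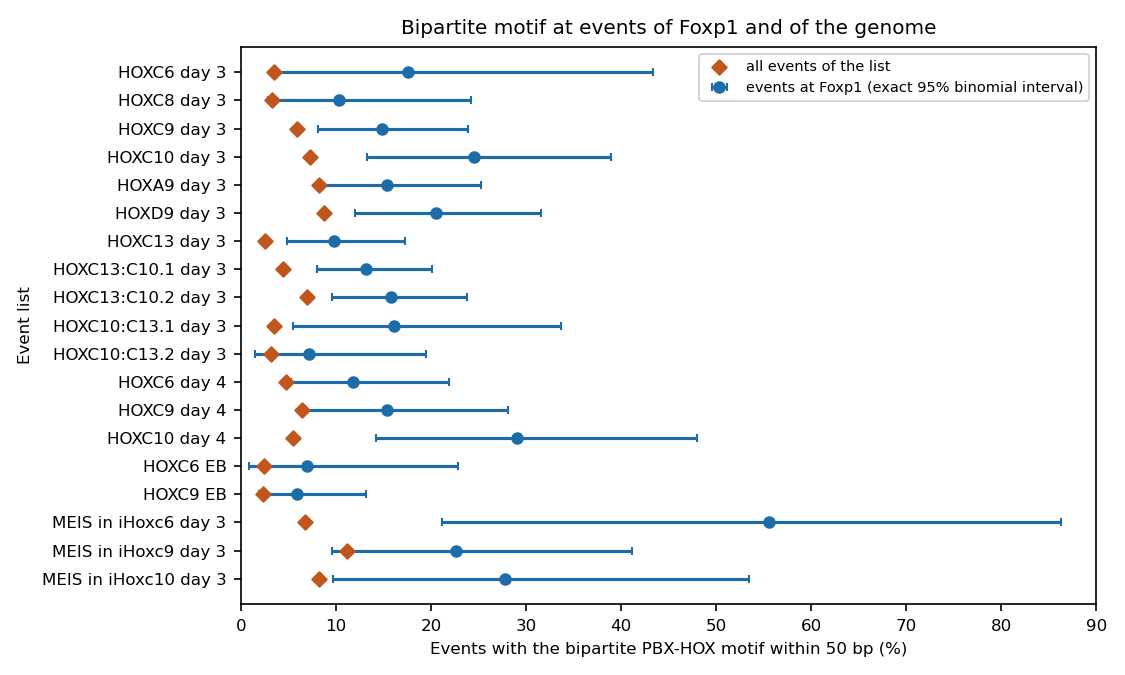
Percentage of events with the bipartite PBX-Hox motif within 50 bp (horizontal axis) in the 19 lists with events at Foxp1, for events at Foxp1 (circles with exact 95% binomial intervals) and for all events of the list (diamonds). The circle exceeds the diamond in every list, from 5.88% for HOXC9 in EBs to 55.6% for MEIS in iHoxc6 cells, where genome shares run from 2.35% to 11.2%.

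Among sites of at least 14 lists, 5 held TGATTTAT. One is the +332.6 kb site above, and the other 4, chosen after their values were seen, are shown as 32 bases of the minus strand with the motif in capitals. They are at chr6:99206934-99206965, chr6:99179978-99180009, chr6:99026180-99026211 and chr6:99013729-99013760.
+315.8 kb: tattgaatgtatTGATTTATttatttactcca
+342.7 kb: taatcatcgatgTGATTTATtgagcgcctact
+496.5 kb: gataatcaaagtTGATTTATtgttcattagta
+509.0 kb: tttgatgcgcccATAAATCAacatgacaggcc

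All of these but +315.8 kb were MEIS sites in the 3 lines, with ranks of 2478 to 6068 at +342.7 kb, 396 to 3200 at +496.5 kb and 488 to 2437 at +509.0 kb. Their best Hox ranks were 5751 for HOXC10 at day 3 at +315.8 kb, 2194 for HOXC9 at day 4 at +342.7 kb, 1642 for HOXC6 at day 4 at +496.5 kb and 3375 for HOXC10 at day 4 at +509.0 kb. The strongest Hox sites at +174.6, +502.8 and +55.4 kb lack TGATTTAT in the 101 bases shown.

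Other genes with the same balance of lists and other genes of limb motor neurons give the locus its context. Over the shares that each of 16 Hox lists took of a gene's top events, the genes nearest to Foxp1 among 503 compared were Npas3 with an overlap of 94.2%, Hoxa7 with 93.2%, Hoxa6 with 92.7%, Efnb2 with 92.6% and Hoxa5 with 92.4%, where the windows of the 3 Hoxa genes overlap. Foxp2, the paralog of Foxp1 with a window of similar length, held 119 top events against 204. Its HOXC10:C13 chimera counts were 7 and 8, where Foxp1 had 2 and 1. Foxp3 held 6 and Foxp4 3.

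A list of 14 further genes of limb-level motor neurons had at least 1 top event each, as had 77.7% of coding genes. None held more than Foxp1, but their windows are shorter. Per 100 kb of window Foxp1 held 29.3 top events of the 16 lists, the median of the 14 was 16.0 and the median of all coding genes 2.08. Nkx6-1, a homeodomain gene of motor neuron progenitors, was the densest with 54.3, followed by Epha4, an axon guidance receptor of limb-innervating neurons, with 39.1, Aldh1a2, the retinoic acid synthesis enzyme of the lateral motor column, with 36.0, and Mnx1, a general motor neuron gene, with 33.2. At Aldh1a2 HOXC10 had 6 top events and HOXC13 7, where Foxp1 had 21 and 8. The lowest were Runx1 with 0.616 and Isl1 with 1.80.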

How the data were processed

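Binding events of 21 ChIP-seq conditions were analysed as deposited. Per the submitters' processing notes, the authors used Bowtie 1.0.1, Picard 2.8.2 and edgeR 3.22.5 on mm10. Events were called by the authors with MultiGPS at q below 0.001 on pooled replicates. For each event the deposited lists give estimated counts of ChIP and scaled control reads, the log2 fold between them and a log2 q-value, treated here as a score. They also hold log2 values, folds and p-values of the authors' comparisons between conditions, which were not used, and neither were the deposited BED files.

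Events were ranked by q-value, ties by ChIP count, and merged within 100 bp (pandas 2.3.3). Shares have exact Clopper-Pearson and counts exact Poisson 95% intervals (SciPy 1.17.1). Annotation was GENCODE vM21, and sequence came from RefSeq's GRCm38.p6. All 987 motif sequences deposited with events at Foxp1 were found within 100 bp of their event in it. Overlap counting was tested on simulated data. Sites named are those with top events of HOXC6, HOXC8, HOXC9 and HOXC10, those where HOXC9, HOXC10 or HOXC13 differ, the best of each list and those at transcript starts, up to 6 a class. Members, lists and rules were chosen with earlier results of these data known.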

Additional observations from a re-analysis of the deposited data

How the results depend on the processing

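Of 121 alternative values for 29 results, 92 stayed within the counting interval or within 1.5 times the count and 29 did not. Among the chimera differences, that of HOXC10:C13.2 alone had an interval excluding 0, and it kept its sign. That of HOXC13:C10.1 changed sign, from -5.88 to 33.3 points at equal list lengths. At q below 1e-10, 157 sites remained of 240. With 5000 top events the counts at Foxp1 were 5 (HOXC6), 8 (HOXC8), 9 (HOXC9), 9 (HOXC10) and 4 (HOXC13), and with 17000 they were 25 for HOXC9, 27 for HOXA9, 23 for HOXD9 and 16 for HOXC13. With both lists at the length of the shorter, shares are given with the genome share of that setting in parentheses. They were 51.0% (48.4%) for HOXC10 with HOXC9 and 77.1% (50.8%) for HOXC9 with HOXC10. For HOXC6 with HOXC9 the share was 58.8% (35.1%), and for HOXC13 with HOXC10 36.7% (13.5%). With day 3 it was 75.0% (71.2%) for day 4 HOXC6 and 76.9% (65.6%) for day 4 HOXC9. For HOXC9 with EBs it was 39.8% (28.1%), and for MEIS 51.6% (36.7%) in iHoxc9 and 61.1% (37.9%) in iHoxc10. The chimera differences were 33.3, 50.0 and -66.7 points for HOXC13:C10.1, HOXC13:C10.2 and HOXC10:C13.2. At q below 1e-10 the shares were 36.8% for HOXC9 with HOXC10 (24.7% in the genome) and 16.4% for HOXC13 with HOXC10 (5.78%). For day 4 HOXC10 with day 3 it was 55.0% (56.1% in the genome). MEIS had 100% in iHoxc9 and 60% in iHoxc10 (72.5% and 52.4% in the genome). Over all called events the MEIS share in iHoxc10 was 72.2% within 50 bp and 100% within 200 bp (42.4% and 59.5% in the genome). Fewer events enter at equal lengths and at q below 1e-10. Of 13 pairs, 13 were higher at Foxp1 than in the genome with equal lengths and 11 at q below 1e-10, with 5 and 2 intervals above the genome share.

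No paired analysis was possible because the lists pool replicates, and for the same reason no replicate was left out. Intervals cover counting error alone, and counts of 9 to 136 events in the 19 lists with any event at Foxp1 limit every share.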
